A study of Mus musculus with 12 samples.

Results

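The comparison described here set fl-CCs transfected with human p53 R175H against fl-CCs transfected with empty vector (EV). The groups were read from the sample titles, and the groups compared hold 6 of the 12 arrays of the series, 3 in each group. fl-CCs are mouse pancreatic cancer cells from tumors with the alleles Pdx1-Cre, LSL-K-ras G12D/+ and LSL-Trp53 fl/+, labeled Trp53fl (null), in which Cre activates mutant K-ras and deletes the floxed Trp53 allele in the pancreas. Both transfected lines therefore carried K-ras G12D and the floxed Trp53 background, and they differed by label only in the plasmid. The remaining 6 arrays were untransfected fl-CCs and mt-CCs, the latter from tumors with Pdx1-Cre, LSL-K-ras G12D/+ and LSL-Trp53 R172H/+. They share the model's estimate of spread for the p-values below, and are also compared with the transfected lines and with each other. All cells grew in DMEM with 10% FBS and 1% P/S to 60% confluency, and the transfected cells alone received 0.6 mg/ml G418, a selection drug. Each group was prepared as biological triplicates of a single line. The p-values therefore measure the spread between cultures of a line and not between independently transfected lines, and whether a transfected line was a clone or a pool is not given in the sources used here.

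p53 is a transcription factor that halts division or triggers death in damaged cells by inducing genes such as Cdkn1a and Mdm2. R175H is a structural mutant of its DNA-binding domain and is the human counterpart of murine R172H. Such mutants have lost most binding to the usual p53 targets and have been linked to altered programs through partner factors, among them NFκB, SREBP-2 and ETS proteins. NFκB is held in the cytoplasm by IκB proteins such as the product of Nfkbia, and once released it induces chemokines, acute phase proteins and its own inhibitors.

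RNA was read on Affymetrix mouse arrays, and the values are RMA log2 values, on which a difference of 1 is a doubling. Among 45037 probe sets, 4586 were higher and 4577 were lower with p53 R175H (20.3% called), a call here being a limma p of at most 0.05 after Benjamini-Hochberg adjustment. By gene, with the probe set of highest mean, 2356 of 18193 genes rose (13%) and 2204 fell (12.1%). The median difference was -0.01 over all genes and the median size of a called difference was 0.56. A difference of at least 1 was reached by 437 genes that rose and 393 that fell, at least 2 by 156 and 66, and at least 3 by 71 and 11, so the largest changes were mostly rises. The 3 arrays of 1 group lay wholly above those of the other in 7919 genes (43.5%), of which 4529 were called.

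Arrays of a group were close to each other, with Pearson correlations over all probe sets of 0.995 to 0.996 among the EV arrays and 0.9954 to 0.9959 among the p53 R175H arrays. Between the groups it was 0.9833 to 0.9843. Untransfected fl-CCs correlated with EV at 0.9864 to 0.99 and with p53 R175H at 0.9858 to 0.9903, so each transfected line was nearer to its parent than to the other. The difference between the 3′ and 5′ control probe sets of Gapdh, which grows as RNA or labeling is shortened, was 0.99 to 1.10 with p53 R175H and 0.69 to 0.77 with EV, and that of actin was 0.18 to 0.23 against 0.10 to 0.15. Neither pair of ranges overlapped, and the part of this in the results below was not tested. The transfected p53 itself could not be checked, since Trp53 was not analysed here and the arrays carry mouse probes.

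The genes that differed most were not those of a single pathway. Peg3, a paternally expressed zinc finger gene on chromosome 7, read 5.62, 5.32 and 6.69 with EV and 12.71, 12.51 and 12.62 with p53 R175H. The groups did not overlap, the difference was 6.74 ± 0.26 (SE, adjusted p = 1.08e-08, limma), and the fl-CCs mean of 9.44 ± 0.06 (SD, n = 3) lay between them. Against the fl-CCs, Peg3 was lower in EV (-3.57, adjusted p = 4.72e-06) and higher with p53 R175H (3.17, adjusted p = 1.23e-05). Both comparisons share the fl-CCs arrays. Over all genes, 7.84% were higher and 7.24% lower in EV than in fl-CCs, and 9.75% were higher and 8.87% lower with p53 R175H than in fl-CCs.

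The same order was seen in several other large rises. Tmlhe, an X-linked gene for the enzyme that begins carnitine synthesis, read 5.78, 5.56 and 5.81 with EV against 10.69, 10.70 and 10.53 (4.93 ± 0.10, adjusted p = 1.44e-10, limma), with an fl-CCs mean of 9.66. Ambp, which encodes the liver protein precursor of alpha-1-microglobulin and bikunin, read 5.88, 6.14 and 6.15 against 10.56, 10.96 and 11.10 (4.82 ± 0.19, adjusted p = 1.15e-08), with an fl-CCs mean of 9.51. In each of these the EV cells held the low value and both the parent and the p53 R175H cells were high. Klhl13, Tm4sf4, AI467606, Cybb, Eif2s3y, Cdh13, Ptprb, Afp and Mmp10 rose by 3.52 (Mmp10) to 4.75 (Klhl13). Among them Cybb is a subunit of the phagocyte NADPH oxidase, Cdh13 and Ptprb encode a cadherin and a receptor phosphatase, and Klhl13 and Cybb lie on the X chromosome.

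Other genes rose from near background, taken here as a log2 value under 5 on all 3 EV arrays, and for these the difference is given as a bound over that level. Where only some arrays of a group were under it, the fitted difference is given and is less certain in size, as for Lcn2, Saa3, Ccl2, Cxcl10, C1ra, Hpx, Alb, Igfbp5, Fabp1, Nqo1, Ifit1 and Fzd8 below. C1s1, a protease of the complement cascade, read 4.62, 4.70 and 4.70 with EV and 9.74, 9.70 and 9.75 with p53 R175H, at least 4.73 higher. Mageh1, Thbd (thrombomodulin), Cpq, Eid2 and Slc43a3 were higher by at least 3.40 (Slc43a3) to 3.64 (Mageh1). In all, 128 called genes rose from near background and 53 fell to it.

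The largest falls ran the other way, from the level of the parent line downward. Gpc6, a cell-surface heparan sulfate proteoglycan, read 9.39, 9.55 and 9.51 with EV and 6.07, 5.73 and 5.92 with p53 R175H (-3.58 ± 0.13, adjusted p = 5.31e-09, limma), while the fl-CCs mean was 9.28. Bcat1, which transfers the amino group of branched-chain amino acids, read 10.12, 9.91 and 9.96 against 6.36, 6.65 and 6.63 (-3.45 ± 0.17, adjusted p = 9.01e-08), with an fl-CCs mean of 9.07. The water channel gene Aqp5 read 10.57, 10.45 and 10.52 against 6.87, 7.31 and 7.49 (-3.29 ± 0.18, adjusted p = 1.8e-07), with an fl-CCs mean of 10.07. For these genes it was the p53 R175H cells that stood away from the parent. Others did not follow that order, as Rnf182, Ndnf, Slco5a1 and Pdlim4 fell by 2.82 (Slco5a1) to 3.22 (Ndnf) and had fl-CCs means of 5.43 (Slco5a1) to 6.55 (Pdlim4), near the p53 R175H level. Epb41l4a, Celf5, Aqp1, Plagl1 and Car12 completed the 12 largest measured falls, at -3.40 (Epb41l4a) to -2.51 (Car12). Celf6, Prune2, Nptx1, Nfe2, Ppp1r1b and Tulp2 fell to near background, with bounds of -1.95 (Tulp2) to -4.03 (Celf6).

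**Figure D1:**
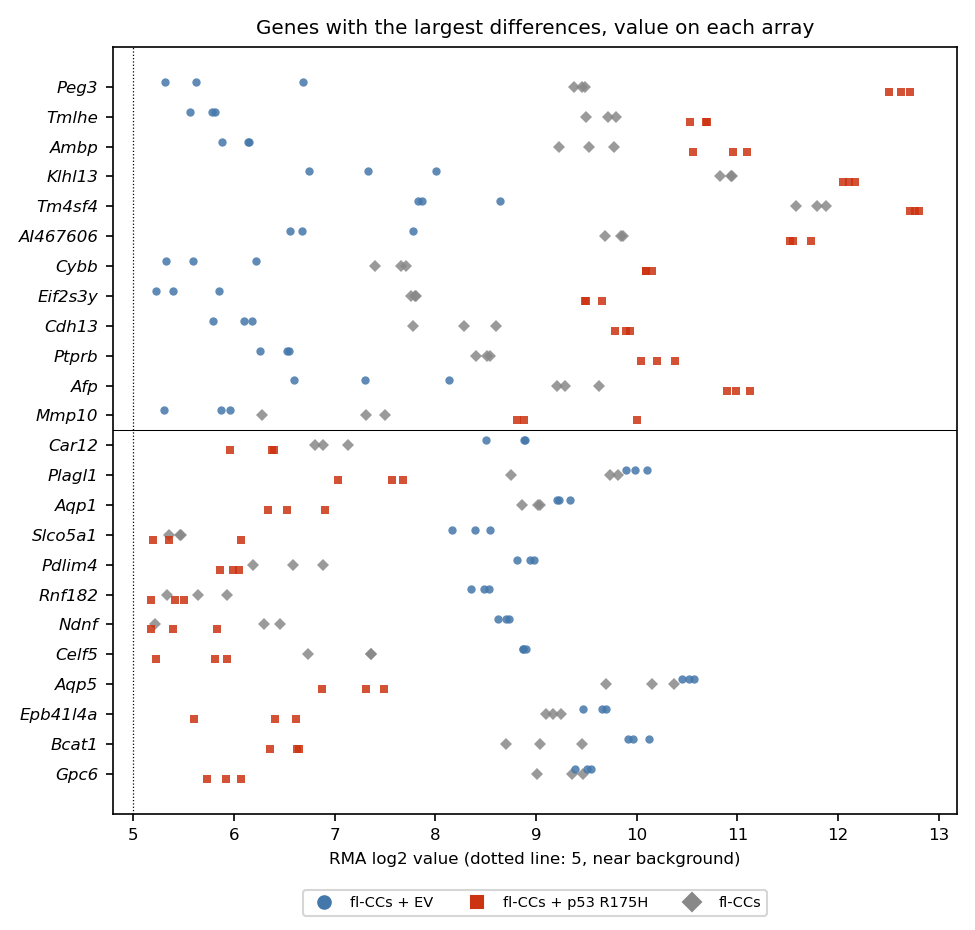
RMA log2 value on each array (horizontal axis) for the 12 largest rises and the 12 largest falls among genes above the near-background level of 5 on all 6 transfected arrays, with EV as circles, p53 R175H as squares and untransfected fl-CCs as diamonds. Circles and squares do not overlap for any gene, and the diamonds lie between them for Peg3 (fl-CCs mean 9.44) and near the circles for Gpc6 (9.28).

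A large share of the called genes followed their chromosome. Over 12326 genes with a mean of at least 5 and a chromosome in RefSeq (GRCm38.p6), 17.6% rose and 16.7% fell. On chromosome 2, 585 of 994 genes rose (58.9%) and 37 fell (3.72%), and the median difference was 0.396. On the X chromosome, 187 of 346 rose (54%) and 13 fell (3.76%), with a median of 0.376. On chromosome 10, 33.1% fell and 5.03% rose, with a median of -0.226. The next lowest medians were -0.219 on chromosome 18, -0.188 on chromosome 11 and -0.173 on chromosome 1. Chromosomes 2 and X together held 10.9% of these genes and 35.5% of those that rose, and 23% of those that rose by at least 1.

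On chromosomes 2 and X the shift was of like size along the chromosome. With the genes of chromosome 2 put in order and divided into 4 equal parts, the medians were 0.40, 0.39, 0.40 and 0.39, and on the X chromosome they were 0.36, 0.42, 0.33 and 0.35. Smaller shifts were about as even on some other chromosomes, as on chromosome 3 (0.17, 0.14, 0.13 and 0.15) and chromosome 11 (-0.16, -0.19, -0.18 and -0.21). Some chromosomes were less even, as chromosome 12 (-0.35, -0.18, -0.01 and -0.06) and chromosome 9 (0.13, -0.14, -0.09 and -0.05). Of the genes of chromosome 2, 85.1% had a difference above 0, and the middle of the distribution ran from 0.13 to 0.62 (quartiles). The medians were stable between arrays. Relative to the fl-CCs mean, chromosome 2 stood at -0.22, -0.23 and -0.22 on the EV arrays and at 0.15, 0.17 and 0.15 on the p53 R175H arrays, and the X chromosome at -0.10, -0.10 and -0.09 against 0.29, 0.25 and 0.25. Both transfected lines thus lay on opposite sides of the parent for these chromosomes. For all 20 chromosomes the 3 array medians of the groups did not overlap, on chromosome 6 by less than the rounding, and the largest SD among 3 arrays was 0.0307. DNA was not measured in these files, and no test was run on the chromosome medians.

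On the Y chromosome, 3 of 5 genes with a mean of at least 5 rose and 0 fell. The Y-linked Kdm5d, a histone demethylase gene, read 5.6, 6.0 and 4.96 with EV against 10.21, 10.00 and 9.95 with p53 R175H (4.53 ± 0.24, adjusted p = 1.98e-07, limma), with 1 EV array under the near-background level, and its fl-CCs mean was 8.27. Eif2s3y rose by 4.06 ± 0.13 and Uty from near background by at least 1.37, whereas Sry was not called (7.37 with EV and 7.11 with p53 R175H on average, adjusted p = 0.118). Xist, the RNA of X inactivation, was near background on all 6 arrays (3.44 to 3.92).

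**Figure D2:**
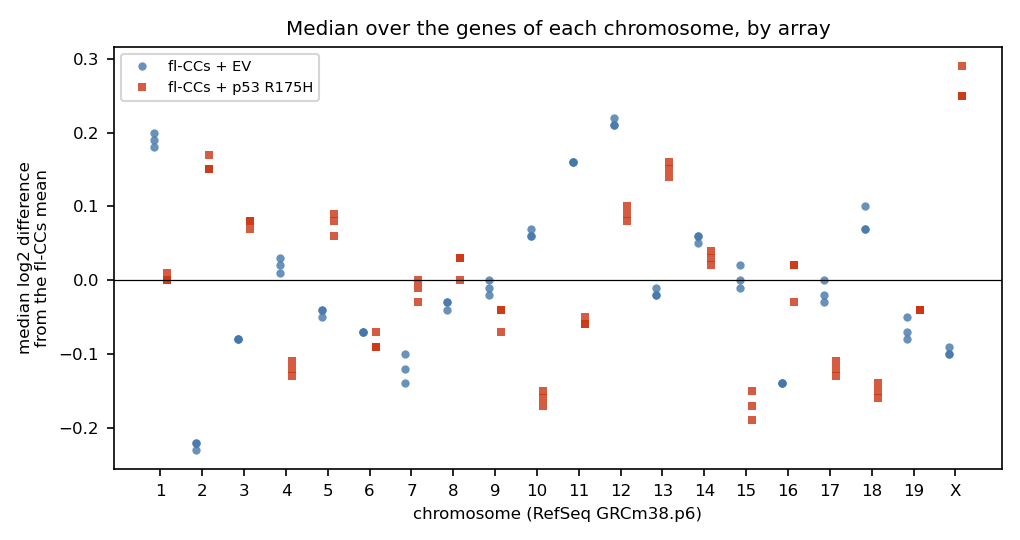
Median log2 difference from the fl-CCs mean (vertical axis) over the genes of each chromosome (horizontal axis), 1 point per array, for EV (circles) and p53 R175H (squares). The 3 arrays of a group nearly coincide, and the groups are farthest apart on chromosome 2 (-0.23 to -0.22 against 0.15 to 0.17) and the X chromosome (-0.10 to -0.09 against 0.25 to 0.29).

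Because a gene's difference moved with its chromosome, the counts of each gene list against EV are also given after each array had been centered on the median of each chromosome, a setting chosen after the chromosome medians had been seen. Centering gave 1741 genes that rose and 2030 that fell, of 18193. The list counts below stand beside these with centering, and beside 13% and 12.1% of all genes without it. All genes here include those near background. Over the 12326 genes with a mean of at least 5 and a chromosome, 17.6% rose and 16.7% fell without centering. Of the 4560 genes called without it, 2825 were called in the same direction with it and 0 in the opposite direction. Of the 830 genes called with a difference of at least 1, 821 were called again. The calls that were lost thus mostly had differences under 1.

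**Figure D3:**
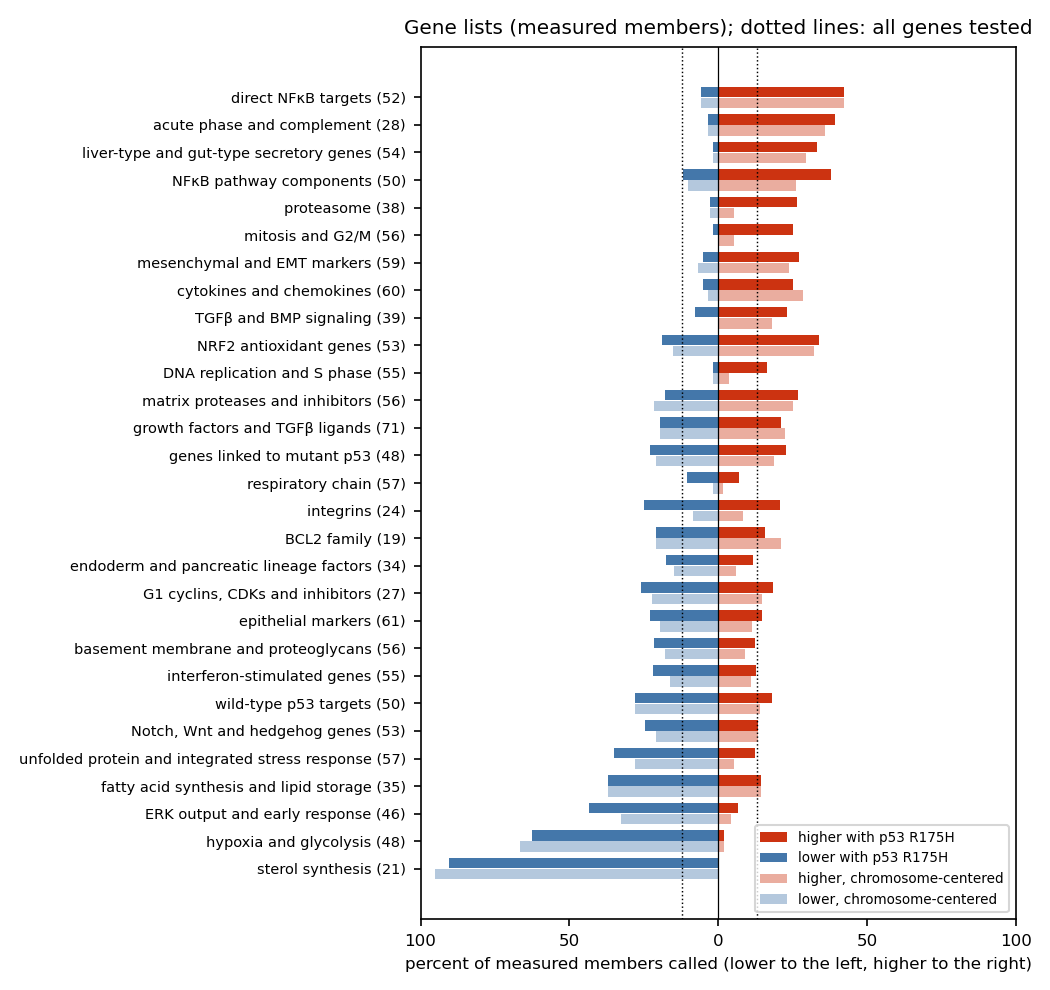
Percent of the measured members of each gene list that were called higher (right) or lower (left) with p53 R175H than with EV. Full color is without and pale color with centering by chromosome. Dotted lines give the share over all genes tested without centering (13 and 12.1), also beside the pale bars. The sterol synthesis and hypoxia lists extend farthest to the left and the direct NFκB targets farthest to the right under both settings, and the bars of the proteasome and mitosis lists shorten with centering.

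Among 52 measured direct NFκB targets, 22 rose and 3 fell, against 13% and 12.1% of all genes, and with centering by chromosome the counts were again 22 and 3. The median difference of the list was 0.25 against -0.01 over all genes, and 13 members rose by at least 1. Over the 40 members not near background in both groups, the medians relative to the EV mean were 0.35, 0.36 and 0.42 on the p53 R175H arrays and 0.15, 0.20 and 0.21 on the fl-CCs arrays. The list holds secreted defense proteins, chemokines and feedback inhibitors. Lcn2 (lipocalin-2, which binds bacterial iron carriers) read 4.75, 5.32 and 5.25 with EV and 9.92, 10.20 and 10.52 with p53 R175H (5.10 ± 0.28, adjusted p = 1.98e-07, limma). Saa3, an acute phase apolipoprotein, read 4.98, 5.35 and 5.39 against 9.03, 9.69 and 9.78 (4.26 ± 0.21, adjusted p = 9.32e-08). Neither gene had overlapping groups, 1 of the 3 EV arrays lay under the near-background level in each, and the fl-CCs means of 7.70 (Lcn2) and 6.17 (Saa3) lay between them.

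The CXC chemokines that draw neutrophils rose together. Cxcl1 read 11.27, 11.29 and 11.27 with EV and 12.39, 12.45 and 12.61 with p53 R175H (1.20 ± 0.09, adjusted p = 3.72e-06, limma). Cxcl5 rose by 1.75 ± 0.08, Cxcl2 by 2.04 ± 0.22 and Cxcl3 by 1.60 ± 0.21. These 4 genes lie in a cluster on chromosome 5, whose median difference was 0.11. For Cxcl1 the fl-CCs mean was 12.10, which was 0.82 above EV (adjusted p = 0.000151) and 0.38 below p53 R175H (adjusted p = 0.0175), and for Cxcl3 the fl-CCs mean of 7.44 lay 0.14 under that with p53 R175H (adjusted p = 0.74). Csf1, the growth factor of macrophages, rose by 2.46 ± 0.17 (0.96 to 1.85 by its other probe sets), and Ccl2, Csf2, Cxcl10 and Ccl20 rose by 0.90 (Ccl20) to 1.42 (Ccl2).

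Genes that restrain NFκB did not all move one way. Nfkbia, a target as well as an inhibitor, read 11.04, 11.24 and 11.14 against 11.48, 11.71 and 11.69 (0.49 ± 0.10, adjusted p = 0.00523, limma). Nfkbie, a further IκB gene, rose by 1.20 ± 0.14, and Tnfaip3, which encodes the ubiquitin-editing enzyme A20, by 0.32 ± 0.09 (adjusted p = 0.0209), a call that was lost without EV replicate 1 or 3 or p53 R175H replicate 1 or 2. Otulin, whose enzyme removes linear ubiquitin chains, fell by 0.55 on the log2 scale. Not all targets rose, since Icam1 (-0.10), Vcam1 (-0.24), Il1b (near background with EV), Irf1 (-0.03) and Sod2 (-0.02) were not called. Vcam1 was called lower with centering and under several other alternatives. By their probe sets of smallest p, Vcam1 (-0.58) and Sod2 (-0.44) were called lower. Plau (-0.78), Bcl2 (-0.51) and Rel (-0.50) fell, Rel without the call after centering or without EV replicate 2 or p53 R175H replicate 1 or 2.

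Upstream, 19 of 50 NFκB pathway components rose and 6 fell, and with centering 13 and 5. The receptors Tlr2 and Tlr4 rose by 1.07 each and the adaptor kinase gene Irak2 by 0.88. Ikbkg (0.55) and Irak1 (0.58), both X-linked, and Traf2 (0.45) and Rbck1 (0.54) on chromosome 2 rose without centering only. The subunit gene Rela differed by 0.26 and was not called. Rela was called higher without p53 R175H replicate 2 and with probe sets of mean under 5 left out. Map3k14, the kinase of the alternative pathway, fell by 0.69 on the log2 scale.

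The promoter windows of 2 chemokines and of Nfkbia are shown because they hold the letters that NFκB is known to bind. Capitals mark GGNNNTTCC on either strand, in the 200 bases before the start (RefSeq, GRCm38.p6, chr5:90891045-90891244, plus strand, for Cxcl1, chr5:90903699-90903898, plus strand, for Cxcl2, and chr12:55492648-55492847, minus strand, for Nfkbia).
Cxcl1: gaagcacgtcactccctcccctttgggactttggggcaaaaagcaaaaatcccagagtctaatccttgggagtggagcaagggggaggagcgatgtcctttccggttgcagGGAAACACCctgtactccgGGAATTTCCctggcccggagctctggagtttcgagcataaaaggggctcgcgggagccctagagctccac
Cxcl2: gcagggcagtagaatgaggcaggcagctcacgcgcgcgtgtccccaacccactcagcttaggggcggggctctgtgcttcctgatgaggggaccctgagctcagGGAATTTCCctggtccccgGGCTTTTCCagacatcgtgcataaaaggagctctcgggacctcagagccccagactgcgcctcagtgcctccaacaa
Nfkbia: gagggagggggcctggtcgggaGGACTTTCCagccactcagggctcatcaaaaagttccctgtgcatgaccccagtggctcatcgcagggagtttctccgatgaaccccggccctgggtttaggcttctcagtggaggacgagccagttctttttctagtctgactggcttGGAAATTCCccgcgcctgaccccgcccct
Cxcl1 and Cxcl2 share the match GGAATTTCC, at 70 and 96 bases before their starts. In windows of 300 bases (250 before and 50 after the start), 13 of the 17 NFκB targets that rose and had a window held a match (76.5%), as did 26 of 39 members of the list (66.7%). Of all 27025 genes with a window 20.7% held one, and 24.7% of the tested genes that were not near background did. Of the latter, the shares were 25.4% among the genes that rose and 23.2% among those that fell. The list was written from known targets, so its share describes the list and not the change. A match is a description of letters only.

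**Figure D4:**
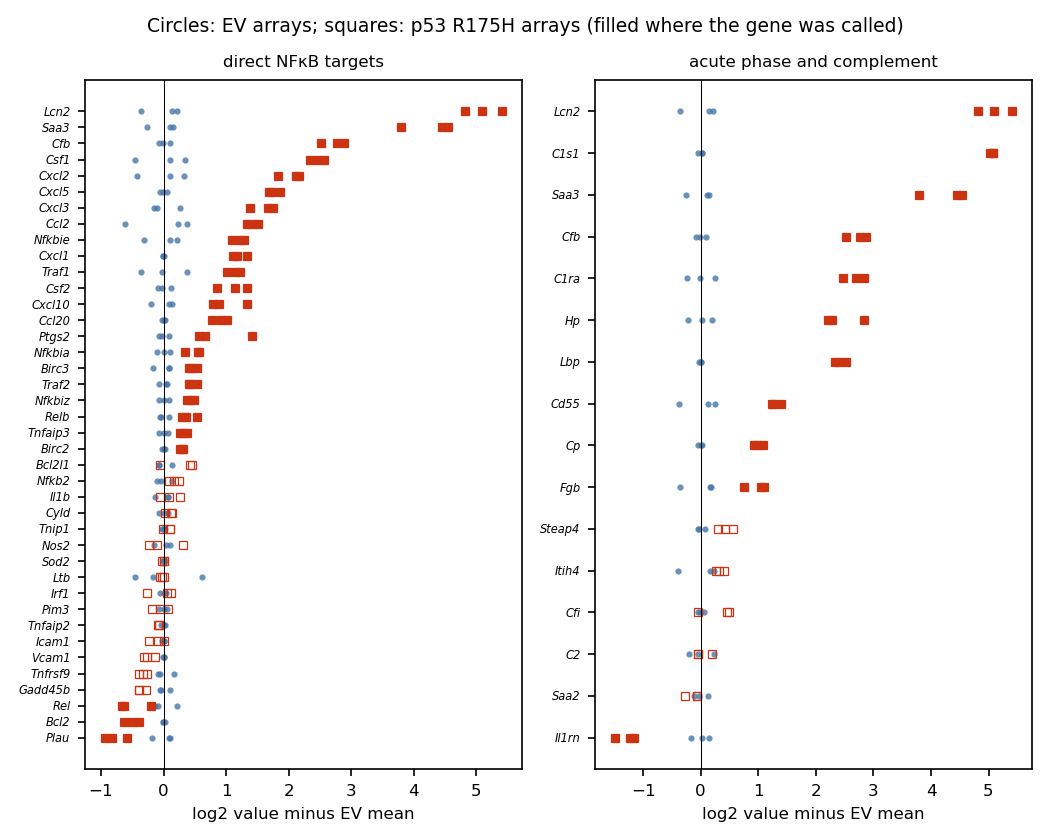
Log2 value minus the EV mean (horizontal axis) on each EV array (circles) and p53 R175H array (squares, filled where the gene was called) for the direct NFκB targets and the acute phase and complement genes that were not near background in both groups. Lcn2 (5.10), C1s1 and Saa3 (4.26) lie farthest to the right, and Il1rn (-1.29) and Plau (-0.78) lie to the left of 0.

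Acute phase and complement genes, which the liver makes in inflammation and which epithelial tumors can express, rose in 11 of 28 cases, with 1 fall (10 and 1 with centering). Cfb, the complement factor B gene, read 8.52, 8.45 and 8.63 with EV and 11.05, 11.30 and 11.41 with p53 R175H (2.72 ± 0.13, adjusted p = 7.23e-08, limma). Lbp, which encodes the lipopolysaccharide-binding protein, rose by 2.42 ± 0.15, Hp (haptoglobin) by 2.44 ± 0.16 and C1ra by 2.67. Il1rn, the antagonist of the interleukin-1 receptor, was the member that fell and read 9.57, 9.89 and 9.76 against 8.58, 8.25 and 8.52 (-1.29 ± 0.15, adjusted p = 8.9e-05). The list medians relative to the EV mean were 0.82, 0.90 and 0.94 on the fl-CCs arrays and 1.22, 1.18 and 1.17 on the p53 R175H arrays, so the parent also lay above EV.

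Liver-type and gut-type secretory genes rose in 18 of 54 cases and fell in 1 (16 and 1 with centering). Besides Ambp, Afp (alpha-fetoprotein) read 6.6, 7.3 and 8.14 with EV and 11.13, 10.90 and 10.99 with p53 R175H (3.66 ± 0.42, adjusted p = 7.25e-05, limma). Serpina1b, an alpha-1-antitrypsin gene, rose from near background by at least 3.13 and reached 8.13, against 8.19 in the fl-CCs. Serpina1b belongs to a cluster of close paralogs whose probes may cross-react. Hpx (3.01), Alb (2.06), Apoc2 (1.95), Apob (1.37) and Apoa1 (1.30) rose too, and Spink4 fell by 1.44 on the log2 scale. Here EV was the low group, since the list medians relative to the EV mean were 0.47, 0.50 and 0.47 on the fl-CCs arrays and 0.43, 0.33 and 0.54 on the p53 R175H arrays. Among the lineage factors, Prox1 rose from near background by at least 2.46, and Hnf4a, the factor that drives many liver-type genes, rose by 0.43 without the call after centering.

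Of 60 cytokine and chemokine genes, a list that includes the 9 chemokine and CSF genes named above as NFκB targets, 15 rose and 3 fell (17 and 2 with centering), with Ccl17 (1.57), Cxcl17 (1.22) and Ccl9 (1.13) the largest rises outside the NFκB targets. Cxcl12 was near background in both groups, at 4.06, 4.07 and 4.41 with EV and 4.35, 4.50 and 4.68 with p53 R175H (0.33, adjusted p = 0.166, limma). Growth factors moved both ways, with 15 of 71 higher and 14 lower (16 and 14 with centering). Igfbp5, which binds insulin-like growth factors, rose by 4.52 ± 0.26 and stood at 9.99 in the fl-CCs, so that the EV cells were the low ones (5.66, 5.19 and 4.92). Angpt2 rose by 2.55, Wnt5a by 1.10, Bmp2 by 1.09 and Inhba by 1.06, Inhba without the call when EV replicate 1 or 3 or p53 R175H replicate 1 was left out. Wnt10a and Wnt7b fell to near background, with bounds of -1.92 and -1.52, and Fgf18 (-2.05) and Tgfb2 (-1.12) fell too.

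Matrix proteases and their inhibitors gave 15 rises and 10 falls among 56 genes (14 and 12 with centering). The stromelysin and collagenase genes of chromosome 9 led the rises. Mmp13 read 5.62, 4.71 and 4.92 with EV and 9.78, 8.79 and 8.66 with p53 R175H (3.99 ± 0.44, adjusted p = 5.42e-05, limma). Mmp10 read 5.31, 5.96 and 5.87 against 10.00, 8.81 and 8.88 (3.52 ± 0.37, adjusted p = 3.97e-05), and Mmp3 read 5.09, 4.35 and 5.31 against 7.30, 6.58 and 6.87 (2.0 ± 0.28, adjusted p = 0.000319). In all 3 genes p53 R175H replicate 1 was the highest array, and 2 EV arrays of Mmp13 and 1 of Mmp3 lay under the near-background level. The inhibitor Timp1 rose by 0.81, and the heparan sulfate cutter Hpse (-1.44), the coagulation starter F3 (-1.43) and Plau (-0.78) fell.

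The windows before the starts of these 3 genes are shown because each holds a match to TGACTCA, the letters bound by AP-1, on either strand, in capitals (RefSeq, GRCm38.p6, plus strand, chr9:7445622-7445821 for Mmp3, chr9:7502142-7502341 for Mmp10 and chr9:7272314-7272513 for Mmp13).
Mmp3: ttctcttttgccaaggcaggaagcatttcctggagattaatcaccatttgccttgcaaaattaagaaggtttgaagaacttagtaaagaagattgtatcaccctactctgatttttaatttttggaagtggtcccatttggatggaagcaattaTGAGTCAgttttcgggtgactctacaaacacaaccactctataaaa
Mmp10: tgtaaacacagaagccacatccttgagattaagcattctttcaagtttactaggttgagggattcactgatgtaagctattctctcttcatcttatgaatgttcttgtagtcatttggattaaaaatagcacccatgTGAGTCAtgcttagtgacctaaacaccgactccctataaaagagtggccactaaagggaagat
Mmp13: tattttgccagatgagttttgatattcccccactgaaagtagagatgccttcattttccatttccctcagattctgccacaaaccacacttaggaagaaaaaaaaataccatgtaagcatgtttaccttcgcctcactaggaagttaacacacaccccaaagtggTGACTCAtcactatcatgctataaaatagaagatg
The matches lay 46 (Mmp3), 63 (Mmp10) and 35 (Mmp13) bases before the start. Such a match was in 5.95% of all windows of 300 bases, in 9 of 38 windows of the protease list (23.7%), in 3 of the 11 windows of proteases that rose (27.3%) and in 2 of the 6 of those that fell (33.3%). It was in 4.81% of the tested genes that were not near background, in 5.09% of the genes that rose and in 4.67% of those that fell. The AP-1 subunit genes Fos (-1.06), Fosl1 (-0.60) and Jun (-0.52) fell, Jun without the call after centering or without any of the EV replicates or p53 R175H replicate 2 or 3.

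Mesenchymal and EMT markers rose in 16 of 59 cases and fell in 3 (14 and 4 with centering). Twist1, a transcription factor of EMT, read 4.62, 4.92 and 4.74 with EV and 8.23, 8.35 and 8.41 with p53 R175H, at least 3.33 higher. Fstl1 rose from near background by at least 1.61 and Nt5e by 1.55, while Tpm2 (-1.17) and Ncam1 (-1.08) fell, and Zeb1 (0.03, adjusted p = 0.859) and Snai2 (-0.13) were not called. Epithelial markers gave 9 rises and 14 falls among 61 genes (7 and 12 with centering), and without any of the EV arrays or p53 R175H replicates 2 or 3, 5 rose. Cdh1, the E-cadherin gene, read 12.16, 12.17 and 12.29 against 12.46, 12.41 and 12.58 (0.28, adjusted p = 0.0452) and lost the call with centering and without any 1 of the 6 arrays, whereas Krt7 (-1.04) and the desmosomal genes Dsc2 (-1.47) and Dsg2 (-1.34), both on chromosome 18, fell.

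Basement membrane and proteoglycan genes gave 7 rises and 12 falls among 56 (5 and 10 with centering), against 13% and 12.1% of all genes. The share of rises was thus near that of all genes. Of the list, 6 fell without EV replicate 2 or p53 R175H replicate 3 and 7 without EV replicate 1 or 3. The heparan sulfate proteoglycan genes went in opposite directions, since Gpc6 fell and Sdc2 (syndecan-2) read 5.09, 4.98 and 5.34 with EV and 10.06, 10.07 and 10.11 with p53 R175H (4.94 ± 0.11, adjusted p = 1.44e-10, limma), with 1 EV array under the near-background level. Hspg2, which encodes perlecan, read 8.25, 8.37 and 8.45 against 8.66, 8.05 and 8.43, and the groups overlapped (0.02 ± 0.13, adjusted p = 0.939). Acan (aggrecan) fell by 2.09, and Nid1 and Ntn4 rose by 1.44 and 1.39. Of 24 integrin genes, 5 rose and 6 fell, and 2 and 2 with centering. Without 1 array (any of the EV replicates or of the p53 R175H replicates), 2 to 5 rose and 2 to 6 fell. The collagen-binding subunits Itga1 (1.64) and Itga2 (1.19) rose under both settings.

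Genes of the response to low oxygen and of glycolysis fell in 30 of 48 cases and rose in 1 (32 and 1 with centering), with a median of -0.62. These genes are induced by the factor HIF-1, whose subunit gene Hif1a was not called (0.12, adjusted p = 0.49, limma). The arrays read RNA only, and HIF-1 protein was not measured in these data. Aldoc, a glycolytic aldolase gene, read 11.74, 11.76 and 11.71 with EV and 9.53, 9.23 and 9.39 with p53 R175H (-2.35 ± 0.19, adjusted p = 5.61e-06). The lactate exporter gene Slc16a3 read 10.31, 10.53 and 10.45 against 8.44, 7.95 and 7.94 (-2.32 ± 0.17, adjusted p = 2.23e-06), and Egln3, a prolyl hydroxylase that marks HIF for decay, read 11.51, 11.41 and 11.34 against 9.62, 9.07 and 8.92 (-2.21 ± 0.15, adjusted p = 9.21e-07). Groups were separate in all 3. The peptide hormone gene Adm varied most between cultures, at 12.76, 12.95 and 12.86 against 11.73, 10.47 and 9.73 (-2.22 ± 0.43, adjusted p = 0.00323).

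Over the 46 members that were not near background in both groups, the median relative to the EV mean was -0.51, -0.72 and -0.66 on the p53 R175H arrays, between -0.02 and 0.03 on the EV arrays and between -0.25 and -0.03 on the fl-CCs arrays. Without any 1 of the 6 transfected arrays, 28 to 30 members fell. The core enzymes of glycolysis moved little. Aldoa (-0.33) and Pkm (-0.31) fell, and Ldha (-0.16), Pgk1 (-0.18), Tpi1 (-0.11) and Pgam1 (-0.15) were not called. Ldha and Pgk1 were called lower with centering, and Tpi1 by its probe set of smallest p (-0.34). Car9, a strongly oxygen-dependent gene, read 6.22, 6.32 and 6.21 against 6.35, 6.31 and 6.57 (0.16, adjusted p = 0.58), and its fl-CCs mean was 8.37. Placental growth factor (Pgf, 0.87) was the member that rose, and Vegfa fell by 0.76.

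Sterol synthesis fell as a whole. Of 21 measured genes, 19 fell and 0 rose, with a median of -0.88, and with centering 20 fell. Hmgcs1, Mvk, Pmvk, Mvd, Idi1, Fdps and Fdft1, which build squalene from acetyl units, fell by 0.39 (Mvk) to 1.59 (Mvd), and Sqle, Lss, Cyp51, Msmo1, Nsdhl, Hsd17b7, Sc5d, Dhcr7 and Tm7sf2, which turn squalene into cholesterol, by 0.63 (Tm7sf2) to 1.67 (Lss). Lss, the cyclase of that route, read 12.82, 12.90 and 12.78 with EV and 11.39, 11.14 and 10.97 with p53 R175H (-1.67 ± 0.11, adjusted p = 6.8e-07, limma), and Mvd read 10.68, 10.70 and 10.67 against 9.30, 9.08 and 8.89 (-1.59 ± 0.11, adjusted p = 1.04e-06). Srebf2, the gene of the controlling factor SREBP-2, read 10.23, 10.34 and 10.17 against 9.36, 9.46 and 9.25 (-0.89 ± 0.09, adjusted p = 2.76e-05), and its target Insig1 fell by 0.99.

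The fl-CCs resembled the EV cells here, with list medians of -0.20, -0.11 and -0.10 relative to the EV mean against -0.75, -0.87 and -0.96 on the p53 R175H arrays. Only Ebp (0.08) and Scap (-0.18) of the 21 genes were not called without centering. Fatty acid and lipid storage genes fell in 13 of 35 cases and rose in 5 under both settings. The lipogenic enzymes Scd1 (-1.03), Acss2 (-1.20), Fasn (-0.85) and Acly (-0.56) fell, and the fatty acid binding proteins Fabp4 (at least 2.80, from near background), Fabp1 (1.87) and Fabp5 (0.72) rose.

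**Figure D5:**
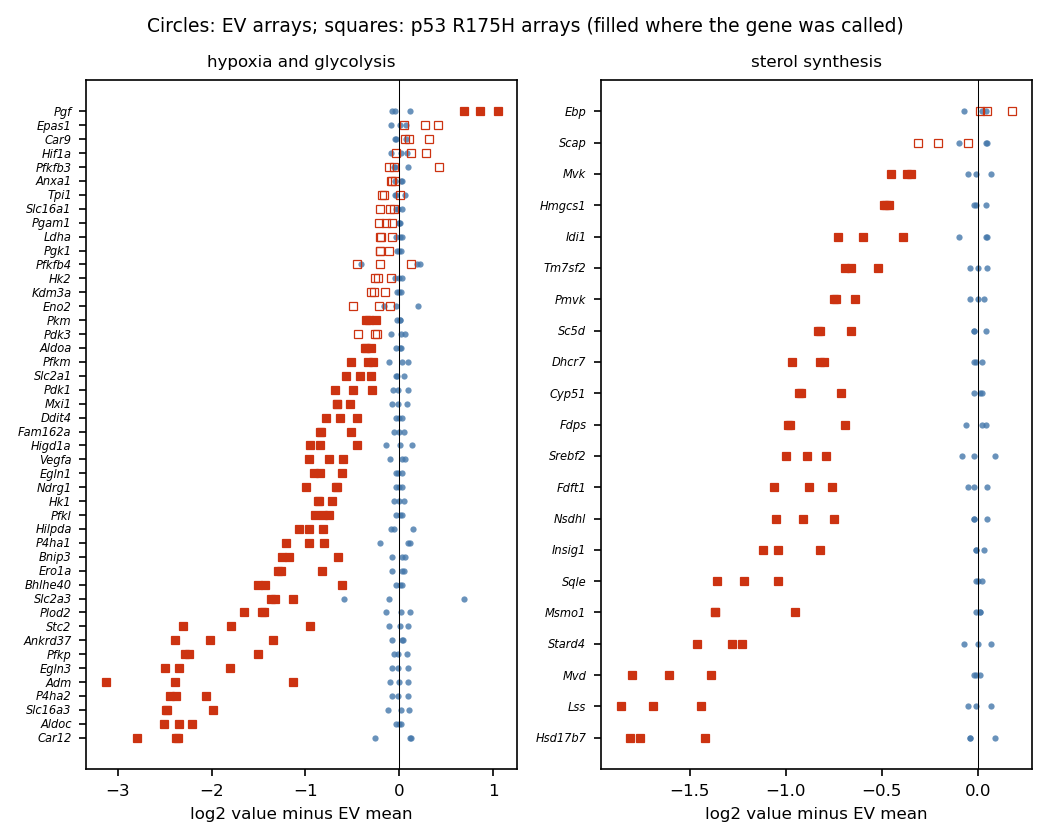
Log2 value minus the EV mean (horizontal axis) on each EV array (circles) and p53 R175H array (squares, filled where the gene was called) for the hypoxia and glycolysis genes and the sterol synthesis genes that were not near background in both groups. All 19 called sterol genes lie to the left of 0 on every p53 R175H array, and Adm is the most spread (-2.22 with values from 9.73 to 11.73).

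Targets of wild-type p53 moved both ways, with 9 of 50 higher and 14 lower (7 and 14 with centering). Cdkn1a, the cell cycle inhibitor p21, read 9.68, 9.98 and 10.07 with EV and 8.93, 8.71 and 8.58 with p53 R175H (-1.17 ± 0.28, adjusted p = 0.0105, limma), Phlda3 fell by 1.61 ± 0.12 and Pmaip1 (the death factor Noxa) by 1.07. The death receptor gene Fas rose from near background by at least 1.75, and Mdm2 was not called (-0.21, adjusted p = 0.236). Among 48 genes linked to mutant p53 in earlier work, 11 rose and 11 fell (9 and 10 with centering). The direction of those earlier links was not compared here. Ets1 (1.09), Id1 (1.79), Axl (0.44) and the drug pump gene Abcb1b (0.68) rose, and the sterol genes Lss, Sqle and Hmgcs1 and the receptor gene Nrp2 (-1.01) were among those that fell. Id3, a companion of Id1 that is induced by BMP signals, rose by 2.75 ± 0.17.

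Several lists had fewer calls with centering, which moved all chromosomes at once, and the part of any single chromosome was not tested. Of 56 mitosis genes 14 rose and 1 fell, and with centering 3 and 0. Without EV replicate 2 or 3, 9 and 8 rose, and without EV replicate 1 or p53 R175H replicate 3, 0 fell. Tpx2 (0.79), Aurka (0.74), Bub1 (0.72) and Ube2c (0.60), spindle and mitotic exit genes on chromosome 2, lost their calls, and Bub1 was also not called without EV replicate 3. The list median was 0.17 without and 0.20 with centering, so the loss was of calls and not of the median. Relative to the EV mean, the mitosis medians were 1.18, 0.68 and 0.54 on the fl-CCs arrays and 0.08, 0.25 and 0.19 with p53 R175H. Both transfected lines thus lay below the parent. For the DNA replication list these medians were 0.88, 0.27 and 0.30 against 0.06, 0.29 and 0.21. DNA replication genes went from 9 rises and 1 fall of 55 to 2 and 1 (5 rises without EV replicate 3 or p53 R175H replicate 2 or 3), with Pcna (0.45), Dut (0.65) and E2f1 (0.66) on chromosome 2. Proteasome genes went from 10 rises and 1 fall of 38 to 2 and 1 (0 falls without EV replicate 1 or p53 R175H replicate 3), and Psmc3 (0.72), Psmb7 (0.62) and Psma7 (0.49) on chromosome 2 were among the rises. Respiratory chain genes had 4 rises and 6 falls of 57, and 1 and 1 with centering, with 2 rises without EV replicate 1 or 2 or p53 R175H replicate 2 or 3. These shares were near or under those over all genes once chromosomes were centered. The G1 regulators gave 5 rises and 7 falls of 27 (4 and 6), with Mycl (1.11) higher and Mycn (-1.03) and Ccnd1 (-0.54) lower. The inhibitor gene Cdkn1c was called higher, from near background (4.06, 3.67 and 3.61 with EV) to 5.51, 5.15 and 4.77. In the BCL2 family of 19 genes, Bmf (1.00), Bid (0.65) and Bak1 (0.54, not called without EV replicate 1 or p53 R175H replicate 2 or 3) rose and Bok (-0.99), Bnip3 (-1.03), Pmaip1 and Bcl2 fell. By further probe sets Bak1 (0.06), Bmf (0.11) and Bid (0.24) were not called, while others of Bmf (1.01) and Bid (0.84) were called higher.

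ERK output and early response genes fell in 20 of 46 cases and rose in 3 (15 and 2 with centering). Egr1 (-1.01), Etv4 (-0.85), Ier3 (-0.81), Hbegf (-0.75) and the feedback inhibitor Spry4 (-0.74) were among them. Without p53 R175H replicate 3, 13 fell. The ERK list medians relative to the EV mean were -0.35, -0.12 and -0.19 on the fl-CCs arrays. On the p53 R175H arrays they were -0.18, -0.22 and -0.35, so the parent also lay below EV. Genes of the unfolded protein and integrated stress response fell in 20 of 57 cases and rose in 7 (16 and 3 with centering). Without EV replicate 1 or 2 or p53 R175H replicate 1 or 3, 11 fell, and without EV replicate 2, 4 rose. The falls included genes of the amino acid branch, the cystine carrier Slc7a11 (-1.37), Mthfd2 (-0.92), Tars (-0.73), Trib3 (-0.68) and Asns (-0.60, a call lost without any 1 of the 6 arrays), whereas the endoplasmic reticulum chaperone gene Hyou1 rose by 0.64. NRF2 antioxidant genes gave 18 rises and 10 falls of 53 (17 and 8 with centering). Nqo1 (1.92) and the aldo-keto reductase Akr1c12 (1.83) rose, while Hmox1 (-1.34), Gclc (-0.84) and Slc7a11 fell.

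In the remaining lists, 29.4% (lineage factors) to 37.7% (Notch, Wnt and hedgehog genes) of the members were called, against 25.1% of all genes. That 25.1% includes genes near background in both groups. Of the 12979 genes outside that class, 2265 rose and 2123 fell. Outside it, 4 of 27 lineage factors rose and 6 fell, and 9 of 34 TGFβ and BMP genes rose and 3 fell. The counts were 7 and 13 of 44 Notch, Wnt and hedgehog genes and 7 and 12 of 43 interferon-stimulated genes. An excess over expressed genes was not tested. Interferon-stimulated genes gave 7 rises and 12 falls of 55 (6 and 9 with centering, and 7 falls without EV replicate 1), with Irf9 (0.98) and Ifit2 (0.95) higher and Ifit1 (-1.12) and H2-K1 (-0.99) lower. A further probe set of H2-K1 was called lower (-1.03), and others were not called (-0.06 and -0.38). Oasl1 was also called lower, from 5.54, 5.76 and 4.99 with EV to near background (3.77, 4.24 and 3.89). TGFβ and BMP signaling gave 9 rises and 3 falls of 39 (7 and 0 with centering, and 1 fall without any 1 of the p53 R175H replicates). Notch, Wnt and hedgehog genes gave 7 rises and 13 falls of 53 (7 and 11), in which the Wnt receptor Fzd8 rose by 2.39 and the Notch ligand Jag2 and the Wnt inhibitor Rnf43 had differences of -1.62 and -1.53. Endoderm and pancreatic lineage factors gave 4 rises and 6 falls of 34 (2 and 5), with Cdx2 (-1.06), Klf5 (-0.71) and Sox9 (-0.53) lower, Sox9 without the call after centering.

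Markers were read to check the labeled cell type. Of 9 ductal markers, Krt19 (13.64 with EV and 13.24 with p53 R175H), Krt7, Onecut2 and Slc4a4 were well above background in both groups, and 2 of the list rose and 4 fell (0 and 2 with centering). Without EV replicate 2 or 3 or p53 R175H replicate 2 or 3, 0 of the ductal markers rose, and without EV replicate 1, 1 rose. Among 15 fibroblast markers 1 rose and 0 fell under both settings, and Dcn, Lum, Postn, Col1a2 and Col3a1 were under 5 on average in both groups. Among 15 leukocyte markers 2 rose (Fcgr3, 1.34, and Cd14, 0.45) and 0 fell under both settings, with Ptprc, Itgam, Tyrobp and Adgre1 under 5. Of 12 endothelial markers 2 fell under both settings, among them Flt1 (-2.36), and 1 fell without any of the EV replicates or p53 R175H replicate 1, with Pecam1, Cdh5, Kdr and Tek under 5. None of 7 acinar or 9 endocrine markers was called under either setting. Members that were not near background in both groups numbered 5 of the fibroblast, 6 of the leukocyte, 4 of the endothelial, 4 of the acinar and 5 of the endocrine list. Among these Col5a1 read 8.95 with EV and 9.10 with p53 R175H on average, Cd14 9.57 and 10.02, Flt1 8.90 and 6.54, Cela1 7.40 and 7.25, and Sst 6.25 and 6.27. Their part in the results was not tested.

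The transfected comparison asks whether p53 R175H recreates in fl-CCs what distinguishes mt-CCs from them. The differences between mt-CCs and fl-CCs (18.3% of genes higher and 17.7% lower in mt-CCs) share no array with those between p53 R175H and EV. In all, 2622 genes were called in both, which is 57.5% of the calls with p53 R175H and 40.1% of those of mt-CCs. Of these, 739 were higher in both, 691 were lower in both and 1192 went in opposite directions, so 54.5% had the same direction. A test of the difference between the differences called 15.9% of genes higher and 16.1% lower. Those counts include the chromosome shifts, since no centering was applied to them.

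The lists split on this. Sterol synthesis genes had the same direction in 16 of 16 cases called in both, all lower. Direct NFκB targets were higher in both in 12 of 18 cases and opposite in 6. Hypoxia and glycolysis genes were lower in both in 11 of 17 cases and opposite in 6. Liver-type and gut-type secretory genes were opposite in 15 of 16, since they were low in mt-CCs. Ambp read 4.83 on average in mt-CCs against 9.51 in fl-CCs, and Afp 3.82 against 9.37.

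The 6 NFκB genes that the methods name for these cells showed the spread. Cxcl1 was higher in both, by 1.20 with p53 R175H and by 0.73 in mt-CCs. Nfkbia rose by 0.49 and 0.83, and the difference between these was not called (-0.34 ± 0.14, adjusted p = 0.107, limma). Bcl2 fell with p53 R175H (-0.51) and was higher in mt-CCs. Cxcl12, Tnfrsf9 (-0.33) and Tnfsf11 were not called with p53 R175H, and Cxcl12 and Tnfsf11 were near background in both transfected groups. By its probe set of smallest p, Tnfrsf9 was called lower with p53 R175H (-0.58, adjusted p = 0.0438, limma). In mt-CCs Tnfrsf9 exceeded fl-CCs by 2.61. Cxcl12 and Tnfsf11 read 10.52 and 7.22 on average in mt-CCs, against near-background means of 4.23 and 2.94 in fl-CCs. Twist1 was higher in both, by at least 3.33 with p53 R175H and by 3.32 in mt-CCs.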

How the data were processed

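RNA of 12 cultures (4 groups of 3) was hybridized to Affymetrix mouse whole-genome GeneChip arrays. The deposited log2 values are those the authors made with RMA (version not given in the sources used here), after quality control with the affy package. Arrays have no read depth, and their number limits the precision. Control probe sets (64) were left out. Group means were fitted over all 12 arrays with limma 3.58.1 (R 4.3.3) and empirical Bayes moderation, and p-values were Benjamini-Hochberg adjusted over 45037 probe sets. Which arrays entered the authors' own fit is not given in the sources used here. Scripts were tested on simulated data. A gene stands by its probe set of highest mean over the 12 arrays. Symbols come from the platform annotation, and chromosomes and promoter windows from RefSeq (GRCm38.p6). The near-background level of 5 was chosen here, since the values carry no detection call.

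Named were the 12 largest measured rises and falls, the 6 largest from or to near background, the 3 largest of each list in each direction, the methods' NFκB genes with Hspg2, and further list members needed to describe a group. Tests, groups and gene lists were chosen with earlier results of these data known. Alternatives varied the arrays, the model, the normalization, the filter, the thresholds and the replicates. The RMA step itself was not varied here.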

Additional observations from a re-analysis of the deposited data

Results flagged for a closer look

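Between p53 R175H minus EV and mt-CCs minus fl-CCs, 5830 of 18193 genes had a called difference, by the limma test of the former less the latter. Among the NFκB genes named in the methods, 5 had such a difference. It was -1.64 ± 0.13 for Bcl2 (adjusted p = 1.36e-06), which was lower with p53 R175H and higher in mt-CCs, and 0.47 ± 0.13 for Cxcl1 (adjusted p = 0.0195), which was higher in both. It was -5.96 ± 0.21 for Cxcl12 (adjusted p = 1.6e-09), -2.94 ± 0.31 for Tnfrsf9 (adjusted p = 1.86e-05) and -4.33 ± 0.23 for Tnfsf11 (adjusted p = 5.32e-08). These 3 genes were called in mt-CCs but, by the probe set of highest mean, not with p53 R175H. Tnfrsf9 was called lower with p53 R175H by its probe set of smallest p (-0.58, adjusted p = 0.0438, limma). Cxcl12 and Tnfsf11 were near background in fl-CCs, EV and p53 R175H, so their values follow the mt-CCs level (10.52 and 7.22 on average) and are not exact sizes. mt-CCs and fl-CCs come from different tumors, so p53 status and line of origin cannot be told apart in the mt-CCs. EV and p53 R175H share a parent line, but each plasmid was read in a single transfected line. Plasmid and transfected line cannot be told apart either.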

How the results depend on the processing

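Against 2356 genes higher and 2204 lower, the alternatives other than a fold limit gave 1741 to 2781 higher and 1686 to 2746 lower, and leaving out 1 array gave 1852 to 1995 higher and 1686 to 1765 lower. Requiring a log2 difference of at least 1 left 437 genes higher and 393 lower (822 and 730 probe sets). With only the 6 transfected arrays in the fit, 2240 genes were higher and 2117 lower. Among 5 named differences that then lost their call were Rel (adjusted p = 0.0657, limma) and Cdh1 (adjusted p = 0.0712, limma). Replicate numbers did not pair the samples, since the deviations of same-numbered EV and p53 R175H arrays correlated at -0.09 to -0.02. With the number as a replicate block 2189 genes were higher and 2009 lower. Among the named genes, Cxcl12 (adjusted p = 0.0269) was then called, and Cdh1 (adjusted p = 0.0767), Jun (adjusted p = 0.0647), Itgb4 (adjusted p = 0.0551) and Lif (adjusted p = 0.0599) were not. Centering by chromosome, chosen after seeing the data, left 1741 higher and 2030 lower, and 45 named differences lost their call without a change of sign. It turned the sign of Atp5g3 (-0.11, from 0.28), which also lost its call (adjusted p = 0.406, limma). The sign also turned for Ebp (-0.26), Il1b (-0.29), Irf1 (0.17) and Sod2 (0.09), which were uncalled without centering. Of these Ebp was then called lower (adjusted p = 0.0482, limma). Uncalled differences near 0 also changed sign elsewhere: Hspg2 was 0 with array weights and -0.12 to 0.19 without 1 array, Irf1 -0.11 to 0.09, Tnfsf11 -0.15 to 0.05 and Zeb1 -0.01 to 0.09, and Zeb1 was -0.10 by its probe set of smallest p. By their probe sets of smallest p, Tnfrsf9 (-0.58), Vcam1 (-0.58), Sod2 (-0.44) and Tpi1 (-0.34) were called, all lower. The cause of these changes was not tested.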

Other observations

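Several genes known to be imprinted and expressed from the paternal copy were among those that differed, as was seen after their values were known. Besides Peg3 (6.74) and Plagl1 (-2.56), Impact read 6.99, 6.64 and 7.09 with EV and 9.35, 9.49 and 9.64 with p53 R175H (2.58 ± 0.13, adjusted p = 1.15e-07, limma), with an fl-CCs mean of 8.03. Mest read 8.98, 9.17 and 9.02 against 8.19, 7.86 and 7.95 (-1.06 ± 0.10, adjusted p = 2.15e-05), with an fl-CCs mean of 8.15. Nnat (0.71, adjusted p = 0.164) and Ndn (-0.46, adjusted p = 0.199) were not called. Those called did not share a direction.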
